A study of Mus musculus with 9 samples.

Results

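The airway secretory products described here are 10 genes of the conducting airways, whose proteins are mostly secreted or carried at the cell surface, with Cyp2f2, an enzyme inside club cells, among them: Scgb1a1, Scgb3a1, Scgb3a2, Bpifa1, Bpifb1, Muc5b, Muc1, Cyp2f2, Reg3g and Pigr. They were taken by name from the 27203 gene IDs of the table of FPKM (read pairs on a transcript, scaled by its length and by the library's mapped total), after the IDs had been matched to GENCODE M21, and the values of all rows of a gene were summed. All 10 were present, and all 10 passed the filter on low values (a mean of at least 0.1 FPKM over the 9 libraries).

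The conducting airways of the mouse lung are lined mainly by club cells and ciliated cells, with few goblet cells. Club cells secrete secretoglobins, small proteins of the airway lining fluid, and carry enzymes that oxidise inhaled compounds. Goblet and serous cells add gel-forming mucins and antimicrobial proteins, and the polymeric immunoglobulin receptor carries IgA across the epithelium into the lumen.

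The libraries were made from whole lungs of male C57BL/6 mice aged 6 to 8 weeks, 1 mouse each and 3 mice per group. In the VILI (ventilator-induced lung injury) groups, a ventilator delivered 20 ml/kg per breath for 4 hours, and mice were killed right after it (VILI 0 h) or 6 hours later (VILI 6 h), while control mice were intubated and not ventilated. Mice were anesthetized with ketamine and xylazine, and the muscle relaxant pancuronium is described for the ventilation. The hour at which the sequenced controls were taken is not given in the sources used here. Both VILI groups were compared with the same 3 controls.

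Because whole lung was sequenced, fewer cells of a type and less RNA per cell cannot be told apart. The 9 libraries held alveolar, club and ciliated cell markers. The sum of 12 ciliated cell genes was 753 to 844 FPKM in control, 661 to 805 in VILI 0 h and 497 to 846 in VILI 6 h, and the sum of 10 alveolar type 2 cell genes was 13460 to 16776 FPKM over all libraries. Of 12 airway cartilage genes, 0 had a mean of 1 FPKM or more, and their sum was 1.18 to 1.80 FPKM in every library, with Col2a1 at 0.0817 FPKM at most and Cnmd listed at 0 in all 9. Neutrophil genes rose in both VILI groups, from a sum of 49.3 to 56.6 FPKM over 9 genes in control to 557 to 991 in VILI 0 h and 461 to 2022 in VILI 6 h (6 and 7 of the 9 called by limma after adjustment). VILI 6 h replicate 1 had the lowest neutrophil sum of the 6 VILI libraries and was unlike its group for several of the genes below, so the 10 genes were also fitted without it.

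**Figure D1:**
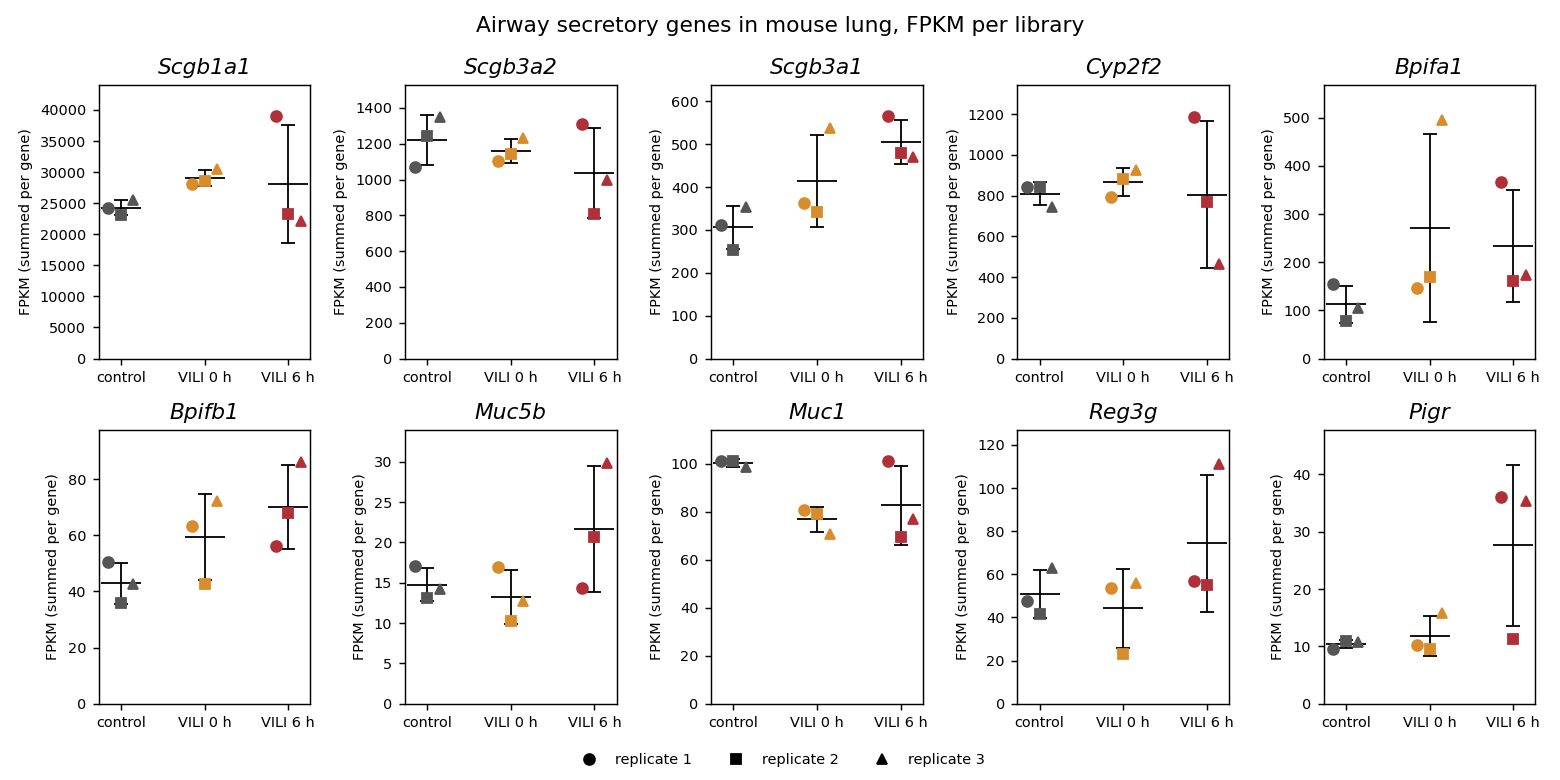
FPKM of each gene in each library (vertical axes from 0, one panel per gene), with the replicate number as the symbol and the mean ± SD of 3 libraries in black. Scgb3a1, Bpifa1, Bpifb1 and Pigr were above every control in all 3 VILI 6 h libraries, and Muc1 was below every control in all 3 VILI 0 h libraries.

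In VILI 6 h vs control, Scgb3a1, Bpifa1, Bpifb1 and Pigr were higher in all 3 libraries than in any control, by 1.66-, 2.005-, 1.62- and 2.34-fold. That was 4 of 10 genes higher without overlap, against 9.64% of the 19378 genes tested, and 0 of 10 were lower without overlap. In either direction, 24.6% of all genes separated these groups. Over the 10 genes the median log2 fold change was 0.50, and over all genes tested it was −0.09.

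After Benjamini-Hochberg adjustment over all genes, limma called 0 of the 10 in this comparison (background 0.702%), with a lowest adjusted p = 0.101. At the study's own threshold, an unadjusted P under 0.05, limma gave 4 of 10 (background 20.4%): Scgb3a1, Bpifb1 and Pigr higher, which is 3 of 10 against a background of 8.17%, and Muc1 lower, which is 1 of 10 against 12.2%. Over the fits that left out 1 library, the adjusted count of the 10 ranged from 0 to 5, and that of all genes from 0 to 4512. Both were highest without VILI 6 h replicate 1, a library singled out partly by the values of these genes. That fit left 2 libraries in VILI 6 h and gave 7 of 10 genes at an unadjusted P under 0.05 (background 38.8%). At an adjusted p under 0.05 it gave 5 of 10 (background 23.3%). These were Muc1 (limma, log2 fold change −0.45, adjusted p = 0.00991), Bpifb1 (0.85, adjusted p = 0.0298), Muc5b (0.76, adjusted p = 0.0427), Scgb3a1 (0.65, adjusted p = 0.0485) and Scgb3a2 (−0.44, adjusted p = 0.0497), and 4512 genes in all passed in that fit. Without VILI 6 h replicate 2, Pigr was the single gene of the 10 with an adjusted p under 0.05 (limma, log2 fold change 1.78, adjusted p = 0.0349, background 0.119%). Without both VILI 6 h replicate 1 and VILI 0 h replicate 3, a choice made after seeing the data, Scgb3a1, Bpifb1 and Muc1 had an adjusted p under 0.05 (limma, 3 of 10, background 21.3%).

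In VILI 0 h vs control, Scgb1a1 was higher and Muc1 lower without overlap, which is 2 of 10 against 33.5% of all genes. By limma, 0 of 10 had an adjusted p under 0.05 (background 0.284%) and 2 of 10 an unadjusted P under 0.05 (background 16.2%), with Bpifa1 higher and Muc1 lower. The median log2 fold change was 0.12 over the 10 genes and −0.07 over all genes.

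Between the times, Muc5b and Pigr had higher values in VILI 6 h than in VILI 0 h at an unadjusted P under 0.05 (limma, 2 of 10 higher, background 5.06%). No gene of the 10 separated the libraries of these groups without overlap, against 12.5% of all genes, and limma called 0 of the 10 and 0 of all genes after adjustment (1938 genes had an unadjusted P under 0.05). Centring each library on its median would shift log2 fold changes up by 0.11 in VILI 0 h and 0.13 in VILI 6 h vs control, since the library medians differed by −0.11 and −0.13.

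**Figure D2:**
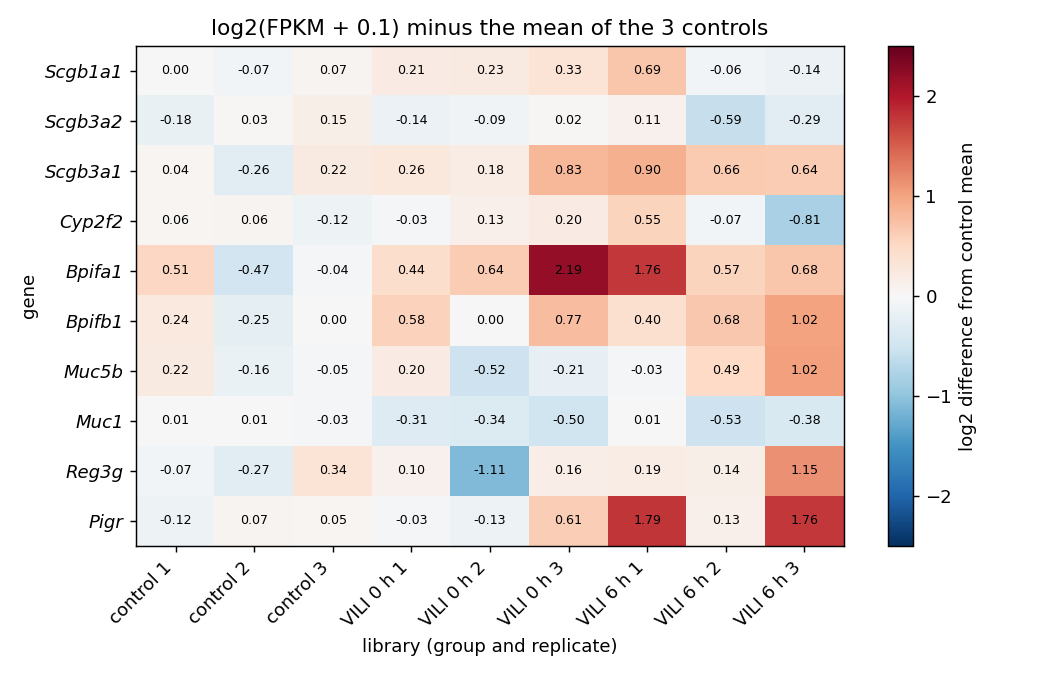
Log2 of FPKM + 0.1 in each library minus the mean of the 3 controls, for each gene (rows) and library (columns), with red for higher and blue for lower. Bpifa1 stood highest in VILI 0 h replicate 3 (2.19) and VILI 6 h replicate 1 (1.76), and Pigr in VILI 6 h replicates 1 and 3 (1.79 and 1.76).

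FPKM is per length, so levels can be compared between genes. In order of the mean over 9 libraries they were Scgb1a1 (27135 FPKM), Scgb3a2 (1139), Cyp2f2 (828), Scgb3a1 (408), Bpifa1 (206), Muc1 (86.5), Bpifb1 (57.5), Reg3g (56.4), Pigr (16.6) and Muc5b (16.6). Scgb1a1 and Scgb3a2 were the single pair of neighbours in this order whose ranges did not overlap. Scgb3a2 was above Cyp2f2 in 9 of 9 libraries and Cyp2f2 above Scgb3a1 in 8 of 9, whereas Bpifb1 exceeded Reg3g in 5 of 9 and Pigr exceeded Muc5b in 3 of 9. Relatives of these genes were mostly near 0: of 34 secretoglobin genes 30 were listed at 0 in every library, and besides the 3 above only Scgb1c1 (a mean of 11.5 FPKM) reached 1 FPKM.

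Scgb1a1 (chr19:9083636-9087958, minus strand, GRCm38) encodes club cell secretory protein, the classical product and marker of club cells. It was the gene with the highest FPKM in all 9 libraries and held 5.85% to 10.2% of a library's summed FPKM. Its level was 24290.5, 23035.6 and 25507.2 FPKM in control, 28042.4, 28496.5 and 30537.8 FPKM in VILI 0 h, and 39011.8, 23231.5 and 22061 FPKM in VILI 6 h. All 3 VILI 0 h libraries were above the controls, and in VILI 6 h replicate 1 was the highest of the 9 while replicate 3 was the lowest. The difference from control was 0.26 in log2 at VILI 0 h (SE 0.28, limma P = 0.383, exact permutation p = 0.1, the smallest that 3 against 3 libraries allow) and 0.16 at VILI 6 h (limma P = 0.579). Without VILI 6 h replicate 1 the latter was −0.10.

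Scgb3a2 (chr18:43764289-43767399, plus strand) encodes a secretoglobin of club cells that acts in the airway lining. Its values were 1070.88, 1240.63 and 1349.8 FPKM in control, 1101.02, 1143.82 and 1234.8 FPKM in VILI 0 h, and 1308.38, 809.691 and 996.157 FPKM in VILI 6 h. The VILI 0 h libraries lay inside the control range, and VILI 6 h replicates 2 and 3 lay below it. On the log2 scale the differences from control were −0.07 (SE 0.18, limma adjusted p = 0.885) and −0.25 (adjusted p = 0.424), and the latter was −0.44 without VILI 6 h replicate 1.

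Scgb3a1 (chr11:49663610-49665118, plus strand) encodes the secretoglobin of larger airways, made by club and goblet-type cells. It measured 312, 253 and 353 FPKM in control, 362, 343 and 538 FPKM in VILI 0 h, and 565, 479 and 471 FPKM in VILI 6 h. Every VILI 6 h library was above every control, and VILI 0 h replicate 3 stood with the VILI 6 h libraries. From a mean of 306 ± 50.2 FPKM in control (SD, n = 3) it was at 505 ± 51.8 FPKM in VILI 6 h, a log2 difference of 0.73 (SE 0.19, limma P = 0.00343, adjusted p = 0.101, exact permutation p = 0.1). At VILI 0 h the log2 difference was 0.42 (limma P = 0.0517, exact permutation p = 0.2).

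The balance of the 2 type 3 secretoglobins, a ratio chosen after the values were seen, was lower in both VILI groups. Scgb3a2 over Scgb3a1 was 3.43, 4.90 and 3.82 in control, 3.04, 3.34 and 2.29 in VILI 0 h, and 2.32, 1.69 and 2.11 in VILI 6 h. Both VILI groups were below all 3 controls in each of their libraries, and they overlapped each other in the single step from 2.29 to 2.32. VILI 6 h replicate 1, which was high for both genes, had a ratio close to the rest of its group.

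Cyp2f2 (chr7:27119909-27133660, plus strand, with an antisense gene, Gm15883, annotated over it) encodes a cytochrome P450 of club cells that oxidises naphthalene and other aromatic compounds. It was at 841, 844 and 745 FPKM in control, 791, 883 and 927 FPKM in VILI 0 h, and 1185, 769 and 463 FPKM in VILI 6 h. The VILI 6 h libraries spanned the highest and the lowest value of the 9, with a 2.56-fold range, and the mean log2 difference from control was −0.11 (SE 0.28, limma adjusted p = 0.840). It was −0.44 without replicate 1 and 0.24 without replicate 3, and both values rest on 2 libraries.

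Among 16 other club cell genes the direction depended on the gene and the time. In VILI 0 h, 4 were higher and 1 lower at an unadjusted P under 0.05 (6.81% and 9.35% of all genes), with Sult1d1 (limma, log2 0.93), Por (0.46) and Cyp4b1 (0.44), enzymes of foreign compound metabolism or its electron supply, among the former. In VILI 6 h, Por was again higher (0.44) while Gsta3, a glutathione transferase (−0.47, SE 0.09), and Aldh1a1, a retinaldehyde dehydrogenase (−0.40), were lower. The controls had 97.7, 119 and 106 FPKM of Gsta3 against 76.2, 75.6 and 79.8 FPKM in VILI 6 h, without overlap. Between the times 0 were higher and 4 lower (4.94% of all genes were lower). After adjustment limma called 0 of the 16 in each comparison, and their median log2 fold changes were −0.04 in VILI 0 h and −0.20 in VILI 6 h vs control, beside −0.07 and −0.09 over all genes.

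Bpifa1 (chr2:154142880-154149219, plus strand) encodes SPLUNC1, a secreted BPI-fold protein that lowers surface tension and acts against bacteria. It varied most of the 10 genes, 6.34-fold between the lowest and the highest library. Its values were 154, 78.1 and 105 FPKM in control, 147, 169 and 496 FPKM in VILI 0 h, and 367, 160 and 174 FPKM in VILI 6 h. VILI 0 h replicate 1 lay below the highest control, and VILI 6 h replicates 2 and 3 lay just above it. The log2 differences were 1.09 at VILI 0 h (SE 0.48, limma P = 0.048, adjusted p = 0.305, exact permutation p = 0.2) and 1.004 at VILI 6 h (limma P = 0.065, adjusted p = 0.270, exact permutation p = 0.1). The former missed an unadjusted P of 0.05 in 11 of 20 alternatives. When VILI 0 h replicate 3 was left out it was 0.54, and when VILI 6 h replicate 1 was left out the latter was 0.62.

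Bpifb1 (chr2:154190818-154220369, plus strand), the long BPI-fold relative of the same gene cluster, is secreted by goblet and glandular cells. It was at 50.4, 35.8 and 42.7 FPKM in control, 63.5, 42.6 and 72.4 FPKM in VILI 0 h, and 56.4, 68.1 and 86.1 FPKM in VILI 6 h. All VILI 6 h libraries were above the controls, and VILI 0 h replicate 2 was inside the control range. The log2 difference was 0.45 at VILI 0 h (SE 0.22, limma P = 0.0734) and 0.70 at VILI 6 h (limma P = 0.0111, adjusted p = 0.144, exact permutation p = 0.1). Of the other 12 Bpif genes in the table, only Bpifb5 had a mean above 1 FPKM (2.69).

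Muc5b (chr7:141839070-141873084, plus strand) encodes the gel-forming mucin of the mouse airway at rest, on which mucociliary clearance depends. It measured 17.1, 13.1 and 14.2 FPKM in control, 16.9, 10.2 and 12.7 FPKM in VILI 0 h, and 14.4, 20.7 and 29.9 FPKM in VILI 6 h. Replicates 2 and 3 of VILI 6 h exceeded every other library, and replicate 1 lay within the control range. The log2 difference was −0.17 at VILI 0 h (SE 0.26, limma P = 0.523) and 0.50 at VILI 6 h (P = 0.0908), and the times differed by 0.67 (P = 0.0303, adjusted p = 0.444, exact permutation p = 0.2). Without VILI 6 h replicate 3 the last 2 differences were 0.23 and 0.41. Muc5ac, the gel-forming mucin of goblet cell metaplasia, was at 0.273 to 0.838 FPKM in all 9 libraries.

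Muc1 (chr3:89229057-89233381, plus strand) encodes a membrane mucin of the epithelial surface, present on alveolar as well as airway cells. It was at 101, 101 and 98.5 FPKM in control, 80.6, 79.0 and 70.7 FPKM in VILI 0 h, and 101, 69.6 and 76.8 FPKM in VILI 6 h. The controls spread by an SD of 1.53 FPKM, 5 of the 6 VILI libraries lay well below them, and VILI 6 h replicate 1 equalled them. The log2 differences were −0.39 (SE 0.13, limma P = 0.0165, adjusted p = 0.204, exact permutation p = 0.1) at VILI 0 h and −0.30 (limma P = 0.0498, adjusted p = 0.244) at VILI 6 h. The latter passed an unadjusted P of 0.05 in 4 of 20 alternatives and missed it in 16, with the same direction in all 20. In the fit without VILI 6 h replicate 1 the VILI 0 h difference had an adjusted p = 0.0255 (limma, background 6.93%), and in a fit of the control and VILI 0 h libraries alone it was 0.0233 (background 8.24%).

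Of 12 other goblet and mucin genes, 2 were lower at VILI 0 h (9.35% of all genes) and 1 was higher at VILI 6 h (8.17%) vs control at an unadjusted P under 0.05 by limma, and 0 passed after adjustment. Between the times 3 were higher (5.06%) and 0 lower. Their median log2 differences were −0.17 and 0.06. Muc4, a membrane mucin, was at 7.92, 7.31 and 6.28 FPKM in control, 3.94, 3.83 and 4.51 FPKM in VILI 0 h, and 8.96, 5.84 and 12.2 FPKM in VILI 6 h, so VILI 0 h was below every other library. Clca1, a secreted protein of goblet cells, had a log2 difference of −1.73 at VILI 0 h, with control replicate 3 at 17.5 FPKM against 2.39 and 2.46 in the other controls and 0.680 to 2.30 in VILI 0 h. Spdef, a transcription factor of goblet cell differentiation, was at 0.708 to 0.916 FPKM in control and 1.058 to 2.51 FPKM in VILI 6 h (limma, log2 0.82, adjusted p = 0.213).

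Reg3g (chr6:78466269-78468872, minus strand) encodes a secreted C-type lectin that kills Gram-positive bacteria at epithelial surfaces. It was at 47.5, 41.5 and 63.1 FPKM in control, 53.5, 23.1 and 55.8 FPKM in VILI 0 h, and 57.0, 55.2 and 111 FPKM in VILI 6 h. VILI 6 h replicate 3 was the highest and VILI 0 h replicate 2 the lowest library, and the other 7 overlapped across groups. The log2 difference from control was −0.28 at VILI 0 h (SE 0.37, limma adjusted p = 0.749) and 0.50 at VILI 6 h (adjusted p = 0.457), the latter 0.17 without replicate 3. Its paralog Reg3b was listed at 0 in every library.

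Pigr (chr1:130826684-130852249, plus strand) encodes the polymeric immunoglobulin receptor. It measured 9.54, 10.9 and 10.8 FPKM in control, 10.2, 9.47 and 15.9 FPKM in VILI 0 h, and 36.1, 11.3 and 35.4 FPKM in VILI 6 h. Replicates 1 and 3 of VILI 6 h stood over all other libraries, and replicate 2 was just above the highest control. The log2 difference was 0.15 at VILI 0 h (SE 0.40, limma P = 0.714), 1.23 at VILI 6 h (P = 0.0126, adjusted p = 0.149, exact permutation p = 0.1) and 1.08 between the times (P = 0.0237, adjusted p = 0.423). Without replicate 1 of VILI 6 h it was 0.94 vs control (limma, adjusted p = 0.123). Jchain, which encodes the joining chain of the IgA that Pigr carries, had a log2 difference of −0.48 at VILI 6 h (limma adjusted p = 0.547).

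**Figure D3:**
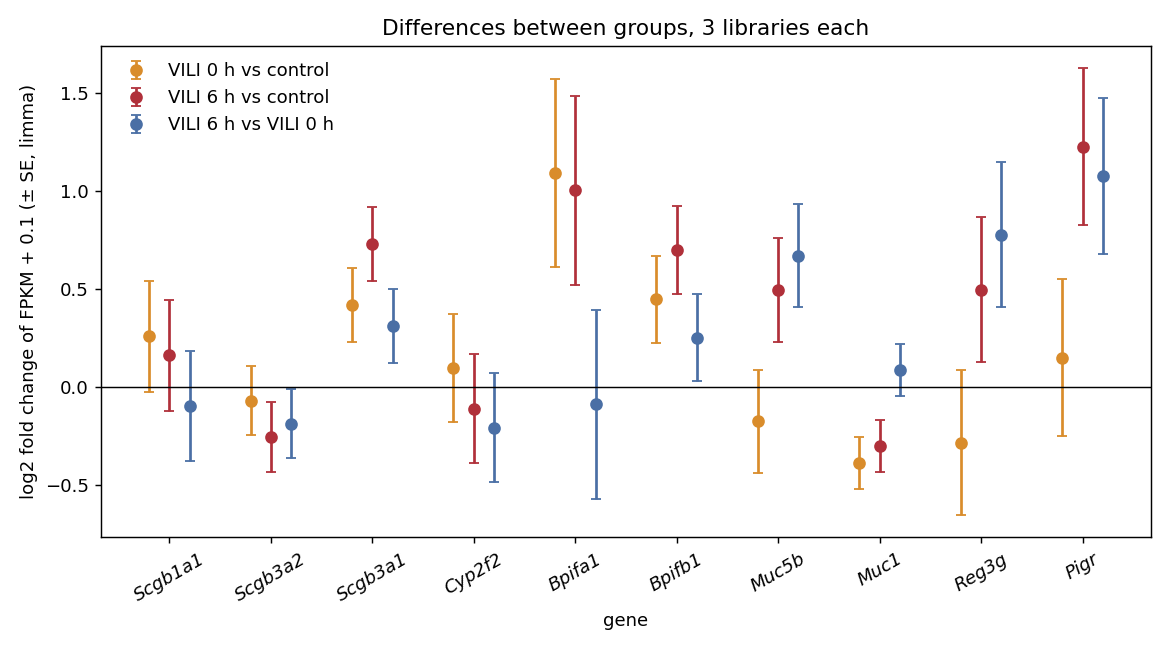
Log2 fold change of FPKM + 0.1 with its standard error from limma, for each gene in the 3 comparisons (colours), 3 libraries per group. Bpifa1 and Pigr had the largest values at VILI 6 h vs control (1.004 and 1.23), Muc1 was below 0 at both times vs control (−0.39 and −0.30), and Scgb1a1 and Cyp2f2 had intervals across 0.

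The promoters of Scgb3a1, Bpifa1, Bpifb1 and Pigr are shown because these were the 4 genes whose VILI 6 h libraries all lay above the controls. RefSeq sequence (GRCm38.p6) of 300 bases, from before to shortly after the annotated start, was matched by symbol. It was found for Scgb3a1, Bpifa1, Bpifb1 (with 2 starts), Muc1, Cyp2f2, Reg3g and Pigr, and not for Scgb1a1, Scgb3a2 and Muc5b. Each line runs 5′ to 3′ on the gene's strand, and capitals mark matches on either strand to TTCCNGGAA (STAT), TCAAG (NKX2-1), TTTAC preceded by T and any base (FOXA), GGG and CC with any 5 bases between them (NF-kB), TTGCNNAA (C/EBP) or TATAAA (known as the site of TBP). The windows are chr11:49663345-49663644 for Scgb3a1, chr2:154142630-154142929 for Bpifa1, chr2:154190568-154190867 and chr2:154200130-154200429 for the first and the second start of Bpifb1, and chr1:130826434-130826733 for Pigr.
Scgb3a1: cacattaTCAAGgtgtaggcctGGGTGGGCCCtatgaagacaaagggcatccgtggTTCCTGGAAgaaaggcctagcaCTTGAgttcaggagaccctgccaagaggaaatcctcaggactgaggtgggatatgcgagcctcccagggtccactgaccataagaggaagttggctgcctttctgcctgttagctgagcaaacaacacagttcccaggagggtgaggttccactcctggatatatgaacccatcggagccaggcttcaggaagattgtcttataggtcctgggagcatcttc
Bpifa1: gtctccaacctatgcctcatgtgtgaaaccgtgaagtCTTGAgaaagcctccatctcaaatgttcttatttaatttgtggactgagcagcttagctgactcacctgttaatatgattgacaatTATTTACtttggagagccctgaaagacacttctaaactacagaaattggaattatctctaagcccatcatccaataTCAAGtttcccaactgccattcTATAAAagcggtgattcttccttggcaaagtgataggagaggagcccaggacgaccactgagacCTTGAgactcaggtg
Bpifb1 first start: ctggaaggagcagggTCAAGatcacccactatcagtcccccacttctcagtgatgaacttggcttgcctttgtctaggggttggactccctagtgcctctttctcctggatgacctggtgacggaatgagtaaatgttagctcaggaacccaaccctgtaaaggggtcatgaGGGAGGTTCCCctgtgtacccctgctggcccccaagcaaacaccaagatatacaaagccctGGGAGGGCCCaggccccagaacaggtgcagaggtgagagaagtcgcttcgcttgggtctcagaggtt
Bpifb1 second start: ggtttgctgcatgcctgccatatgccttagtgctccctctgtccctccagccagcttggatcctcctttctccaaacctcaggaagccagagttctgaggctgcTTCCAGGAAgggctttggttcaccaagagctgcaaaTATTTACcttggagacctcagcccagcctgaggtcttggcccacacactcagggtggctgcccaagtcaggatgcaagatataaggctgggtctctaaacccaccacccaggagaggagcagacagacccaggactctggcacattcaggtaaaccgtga
Pigr: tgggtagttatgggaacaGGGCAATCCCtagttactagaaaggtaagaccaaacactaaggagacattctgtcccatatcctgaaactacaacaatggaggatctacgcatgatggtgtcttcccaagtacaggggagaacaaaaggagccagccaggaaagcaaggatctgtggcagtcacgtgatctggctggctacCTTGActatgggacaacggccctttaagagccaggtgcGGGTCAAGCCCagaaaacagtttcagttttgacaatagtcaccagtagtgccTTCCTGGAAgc

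The STAT letters TTCCNGGAA were the least common of these motifs, found in 1.15% of the 32851 promoter windows of the same length. They occurred in 3 of the genes with a window: Scgb3a1 (194 bases before the start), Bpifb1 (146 before its second start) and Pigr (40 bases after the start). Bpifa1, also shown above, has no such match. The share of 1.15% counts windows, whereas genes were counted once and Bpifb1 has a window for each of its starts. The motifs were chosen after the values of the genes had been seen. Other motifs were common or absent. TCAAG occurred in 40.7% of all windows and in 7 genes, which were all those with a window. The NF-kB letters occurred in 50.8% and in 5 genes (in Pigr they overlap TCAAG), and the FOXA letters in 12.4% and in Bpifa1 and Bpifb1. TATAAA occurred in 13.6% and in Bpifa1, Muc1 and Reg3g, and TTGCNNAA in 10.8% and in 0 of these genes. A match is a description of letters and was not tested as a binding site.

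Cytokines, receptors and signalling factors known to act upstream of Pigr and Reg3g had a median log2 difference of 0.84 at VILI 6 h and 0.06 at VILI 0 h vs control. Of this list of 18, 13 genes passed the filter. At an unadjusted P under 0.05 limma gave 6 higher and 0 lower at VILI 6 h (8.17% and 12.2% of all genes) and 3 higher at VILI 0 h (6.81%). After adjustment 1 gene passed at VILI 6 h (background 0.702%), the interleukin-17 receptor gene Il17ra (limma, log2 1.02, adjusted p = 0.0432). Il17ra was at 5.88 to 7.10 FPKM in control, 7.31 to 11.2 in VILI 0 h and 10.9 to 15.2 in VILI 6 h. Among the ligands, Il1b was at 3.27 to 4.95 FPKM in control, 19.6 to 82.7 FPKM in VILI 0 h and 14.0 to 83.4 FPKM in VILI 6 h (limma, log2 3.14 and 2.88, adjusted p = 0.0757 and 0.0733). Il6 was at 0.306, 1.58 and 19.3 FPKM in VILI 6 h against 0.277 at most in control, Il22 was listed at 0 in all 9 libraries, Il17a was at 0.0339, 0 and 1.08 FPKM and Il17f at 0.222, 0 and 0.613 FPKM in VILI 6 h. The part of these genes in the level of Pigr or Reg3g was not tested. Neutrophil genes rose in both VILI groups, and the part of neutrophils in the values of this list was not tested either.

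Antimicrobial genes other than the 10 had a median log2 difference of 0.29 at VILI 0 h and 0.22 at VILI 6 h vs control. Of the 11 that passed the filter, 3 were higher and 0 lower at VILI 0 h at an unadjusted P under 0.05 (6.81% and 9.35% of all genes), 5 were higher and 2 lower at VILI 6 h (8.17% and 12.2%), and 0 passed after adjustment at either time (limma). Lcn2, which binds bacterial siderophores, was at 55.4 to 80.2 FPKM in the controls, against 152, 182 and 881 FPKM in VILI 6 h (limma, log2 2.18, adjusted p = 0.0978), and Ltf, lactoferrin, at 3.57 to 8.41 FPKM in control and 27.2, 14.3 and 50.1 FPKM (2.29, adjusted p = 0.0908). Slpi, a protease inhibitor of airway secretions, had 16.1 to 16.4 FPKM in control, then 39.2, 21.7 and 35.4 FPKM in VILI 6 h (limma, 0.93, adjusted p = 0.068). Those lower at VILI 6 h were Ang, a secreted ribonuclease (−0.46), and Lyz1, a lysozyme (−0.82), whose control libraries held 218, 473 and 211 FPKM against 238, 126 and 131 FPKM at VILI 6 h, with overlap. Lcn2, Ltf and Pglyrp1 are also neutrophil granule genes, and limma called 7 of 9 neutrophil genes at VILI 6 h after adjustment. The part of neutrophils in these values was not tested.

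Among 15 airway transcription factors, 6 were higher and 0 lower at VILI 6 h at an unadjusted P under 0.05 (8.17% and 12.2% of all genes), and 0 passed after adjustment by limma, with a median log2 difference of 0.21. Xbp1, a factor of the secretory pathway, had a log2 difference of 0.58 (SE 0.11, limma adjusted p = 0.0587), Elf3, an epithelial ETS factor, 0.92, and Cebpd 1.998, the last also 2.38 at VILI 0 h. Cebpd was at 14.9 FPKM in VILI 6 h replicate 1, next to 14.7 FPKM in the highest control, and at 63.5 and 89.7 FPKM in the other replicates.

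**Figure D4:**
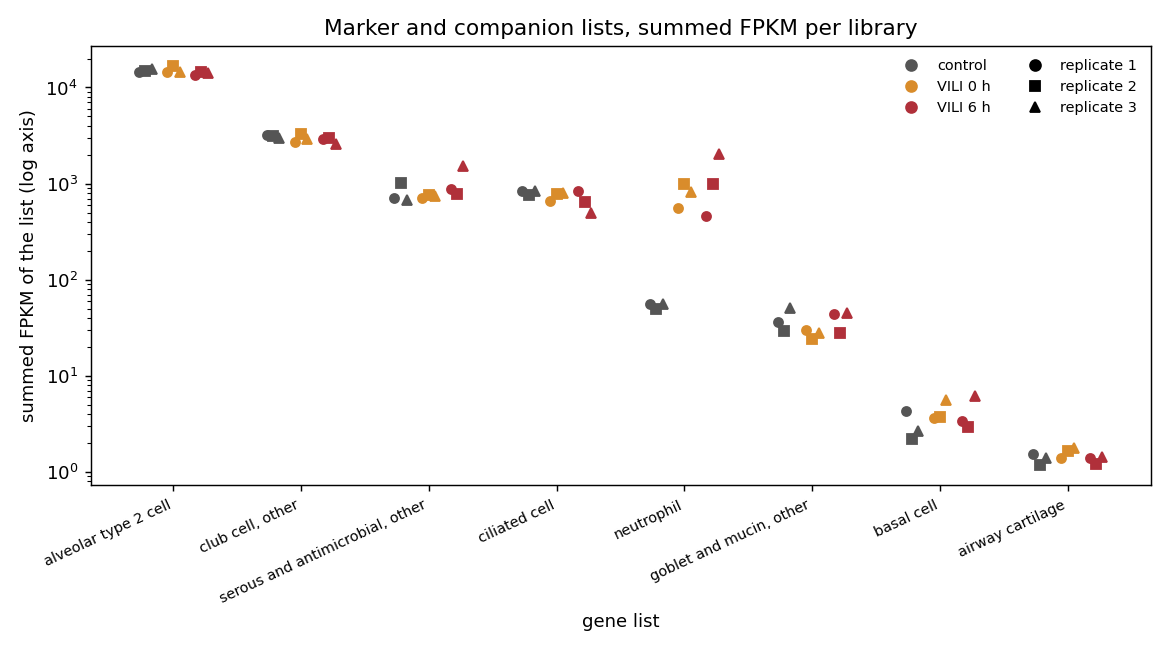
Summed FPKM (log axis) of the genes of each list in each library, with the group as colour and the replicate as symbol. The neutrophil list separated all 6 VILI libraries (461 FPKM or more) from the controls (56.6 FPKM or less), and the ciliated cell list overlapped across the groups. The other club cell genes, a sum led by Cbr2, were at 3016 to 3220 FPKM in control, 2714 to 3267 FPKM in VILI 0 h and 2587 to 3003 FPKM in VILI 6 h. At VILI 6 h vs control 7 of the 16 genes had higher values, and 0 of 16 were called after adjustment.

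Ciliated cells are the other main cell type of these airways. The mean log2 change of the ciliated list was 0.04 at VILI 0 h and −0.03 at VILI 6 h vs control, and 0 of its 12 genes passed after adjustment (limma, with 1 higher at VILI 0 h, beside 6.81% of all genes, and 1 lower, Tppp3, at VILI 6 h, beside 12.2%, at an unadjusted P under 0.05). The summed ciliated level was lowest in VILI 6 h replicate 3 (497 FPKM), the library with the lowest Cyp2f2 and Scgb1a1 and the highest Muc5b, Reg3g and Bpifb1. Of 7 alveolar type 1 cell genes, 2 were higher and 1 lower at VILI 6 h at an unadjusted P under 0.05 (8.17% and 12.2% of all genes), and 0 passed after adjustment. Basal cell genes summed to 2.23 to 6.18 FPKM. Neuroendocrine cell genes summed to 3.43 to 4.20 FPKM in control, 5.94 to 6.81 FPKM in VILI 0 h and 4.26 to 13.7 FPKM in VILI 6 h. Of 4 tested, 1 was higher at VILI 0 h (6.81% of all genes) and 2 at VILI 6 h (8.17%) at an unadjusted P under 0.05 by limma. After adjustment 0 passed. Thyroid genes, a check on tissue next to the airway, summed to 2.59 to 4.39 FPKM.

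The genes closest to each of the 10 across the 9 libraries were ranked by Pearson r on log2(FPKM + 0.1), as a description of libraries that share groups. They came from 14098 other genes with a mean of at least 1 FPKM. With 9 libraries and so many genes, the top r is high through selection alone, and no level expected without a link was computed. For Cyp2f2 they were Fam161a (r of 0.98), Coa3 (0.98) and Vwa3a (0.98), and for Scgb1a1 Tekt1 (0.96), Tspan1 (0.95) and Cyc1 (0.95). Scgb3a2 ran closest with an assembled locus, Ppp2r3c (0.95) and Cetn2 (0.95), and Muc1 with Sp5 (0.99), Gm44951 (0.98) and Gm15940 (0.98). Bpifa1 was nearest to Sumo3 (0.96), Abcc4 (0.96) and Rpl18 (0.96), and Bpifb1 to Cfap43 (0.96), Ube2s (0.95) and Plk3 (0.95). Muc5b was nearest to Ror1 (0.96), Pf4 (0.95) and Trp53i11 (0.95), and Reg3g to Gsta1 (0.93), Skil (0.93) and Dusp5 (0.91). Pigr was nearest to Ppa1 (0.96), Cdh1 (0.95) and Slc26a4 (0.94), and Scgb3a1 to Ptprz1 (0.94), Mdh2 (0.89) and Ltf (0.88).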

How the data were processed

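RNA of 9 mouse lungs was sequenced, 3 per group (control, VILI 0 h and VILI 6 h), grouped by the sample records. The deposited values are FPKM per transcript, which the authors made by aligning reads with TopHat 2.0.9 and Bowtie2 2.0.6, assembling transcripts with Scripture and Cufflinks and running Cuffdiff 2.1.1 (GRCm38, versions from the submitters' processing notes). The library kit and the sequencer named in the sample records differ from those in the study's methods, so whether strand was kept is not settled. Low FPKM values are not whole multiples of 1 read, so the depth behind a value is unknown and its precision is known only from the spread of 3 mice.

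The 60108 rows fell under 27203 gene IDs, of which 23503 of 23713 Ensembl IDs matched GENCODE M21 and 3490 were assembled loci. FPKM was summed per gene. All 9 libraries entered 1 limma 3.58.1 fit (R 4.3.3, with the trend option of eBayes) of log2(FPKM + 0.1), over 19378 genes with a mean of at least 0.1 FPKM, with Benjamini-Hochberg adjustment and a threshold of 0.05. Fold changes of genes near 0.1 FPKM are understated on this scale. Exact permutation tests were two-sided, and 3 against 3 libraries cannot give a p under 0.1. The fit was tested on simulated data. Named genes were the 10 members, for each companion list the highest gene and up to 4 with an unadjusted P under 0.05 and a mean of at least 1 FPKM, and the 3 genes most like each member. A gene that this rule names is not reported here. The lists came from general knowledge, and members, lists and motifs were chosen with earlier results of these data known. Genes named outside this rule (Col2a1, Cnmd, Muc5ac, Reg3b, Il17a, Il17f, Il22, Lyz1, Ang, Scgb1c1 and Bpifb5) were chosen after their values were seen. Alternatives were pseudocounts of 0.01 and 1, a mean of at least 1 FPKM, no filter, median-centred libraries, values relative to ciliated cell genes, only the 6 libraries compared, a replicate block, no trend, the highest row per gene and each library left out. Figures used matplotlib 3.10.9 in Python 3.11.15.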

Additional observations from a re-analysis of the deposited data

How the results depend on the processing

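With 3 mice per group, differences as small as those of most of the 10 genes could not be told from the spread between libraries. The counts of the 10 genes at an adjusted p under 0.05 (limma) were 0 in each comparison. For VILI 0 h vs control it was 1, Muc1, with only the 6 libraries compared (background 8.24%). Over fits that left out 1 library it was 0 to 1, beside 1 to 1343 of all 19378 genes tested. For VILI 6 h vs control it was 0 to 5 over those fits, beside 0 to 4512 of all genes, and both were highest without VILI 6 h replicate 1. At an unadjusted P under 0.05, the count of 2 in VILI 0 h vs control was 1 with a mean of at least 1 FPKM, with no filter, relative to the ciliated cell genes, with only the 6 libraries compared, without a trend and with the highest row per gene, 3 with median-centred libraries (Scgb3a1 added), and 0 to 4 with a library left out. The count of 4 in VILI 6 h vs control was 3 to 7 with a library left out and otherwise 3 to 4. Over all genes tested the same fits gave 2543 to 7526 with a library left out and otherwise 3061 to 4162. Between the times the count of 2 was 1 with median-centred libraries, relative to the ciliated cell genes and with only the 6 libraries compared, and 0 to 4 with a library left out. With a library left out, all genes gave 1979 to 4493 in VILI 0 h vs control and 1407 to 4350 between the times.

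The replicate numbers did not pair the libraries, since the deviations of same-numbered libraries from their group means correlated from −0.22 to 0.02 over 9 pairs. With the replicate number as a block the counts at an unadjusted P under 0.05 were 4, 4 and 3, with 0 after adjustment in each comparison. For VILI 0 h vs control the block gave 2816 of the 19378 genes tested. Over the settings other than libraries left out, all genes gave 3061 to 4162 in VILI 6 h vs control and 1157 to 2203 between the times.

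VILI 0 h replicate 3 and VILI 6 h replicate 1 were also left out together, an alternative chosen after seeing the data because these libraries had the highest Bpifa1. In VILI 6 h vs control 3 genes then passed after adjustment (limma, Scgb3a1, Bpifb1 and Muc1, background 21.3%).

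Some directions changed, and the cause was not tested. With median-centred libraries, Scgb3a2 was at 0.046 at VILI 0 h and Cyp2f2 at 0.018 at VILI 6 h vs control. With libraries left out, the log2 difference at VILI 0 h ranged from −0.16 to 0.0074 for Scgb3a2, from −0.50 to 0.13 for Reg3g and from −0.079 to 0.29 for Pigr. At VILI 6 h vs control it ranged from −0.10 to 0.31 for Scgb1a1 and from −0.44 to 0.24 for Cyp2f2. Between the times it ranged from −0.36 to 0.054 for Scgb1a1, from −0.47 to 0.46 for Bpifa1, from −0.13 to 0.20 for Muc1 and from −0.54 to 0.14 for Cyp2f2. With both libraries of the added alternative left out, Pigr was at −0.079 at VILI 0 h, Scgb1a1 at −0.10 at VILI 6 h, and between the times Bpifa1 was at 0.08 and Muc1 at −0.13. Scgb3a1, Bpifa1, Bpifb1 and Pigr were higher in every VILI 6 h library than in any control. Leaving out a library could therefore not reverse their direction, and its being kept in all 20 alternatives is no separate support. Their log2 differences were 0.60 to 0.86, 0.62 to 1.26, 0.54 to 0.85 and 0.94 to 1.78 over the alternatives. In the same order the adjusted p (limma) was 0.0174 to 0.297, 0.103 to 0.524, 0.0269 to 0.376 and 0.0349 to 0.354.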
